A study of Mus musculus with 24 samples.

Results

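The genes described here are 10 components of Toll-like receptor sensing in mouse leukemia cells, namely the receptors Tlr1, Tlr2, Tlr4, Tlr6, Tlr7, Tlr9 and Tlr13, the adaptor Myd88, and the lipopolysaccharide co-receptors Ly96 and Cd14. They were taken by gene symbol from 4 deposited RNA-seq tables that together hold 25165 symbols, and all 10 were listed in each table. The 24 libraries came from cultured C57BL/6 leukemia cells labelled as bone marrow, 3 libraries for each arm of 4 comparisons.

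The first arm pair was Jak1 null against Jak1 floxed cells, both carrying the CALM-AF10 fusion; the labels give 4-OHT as the agent for Cre-ER deletion of Jak1, and the columns are headed Jak1_Del and DMSO. The other 3 used cells labelled wild type with an inducible fusion. CALM-AF10 off cells were set against CALM-AF10 on cells, MLL-AF10 DOX against MLL-AF10 DMSO, and MLL-AF9 DOX against MLL-AF9 DMSO, where DOX is doxycycline and DMSO its vehicle. The fusions join Picalm (CALM) or Kmt2a (MLL) to Mllt10 (AF10) or Mllt3 (AF9). The CALM-AF10 table names its columns off and on while the library titles say DMSO and DOX, and nothing ties these names together, so the column names are used. All cells grew with SCF, IL3 and IL6. The sources used here do not give DOX and 4-OHT doses, times, the deleted Jak1 exons, the number of clones or whether libraries came from separate cultures. The p-values therefore rest on the spread among these libraries, and that spread may be technical.

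Toll-like receptors are membrane proteins of innate immune cells that recognise microbial molecules. Cd14 binds lipopolysaccharide and hands it to Tlr4, which signals together with Ly96 (MD-2). Tlr2 pairs with Tlr1 or Tlr6 at the cell surface to bind bacterial lipopeptides. Tlr7, Tlr9 and Tlr13 act in endosomes, on single-stranded RNA, unmethylated CpG DNA and bacterial ribosomal RNA, and need the chaperone Unc93b1 to get there. All of these receptors signal through Myd88 to NF-kB and interferon regulatory factors, and in bone marrow they mark mainly monocytes, macrophages and neutrophils, with Tlr7 and Tlr9 also known from plasmacytoid dendritic and B cells.

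Total counts ran from 12130633 to 40187404 per library in the CALM-AF10 off and on table and from 11743388 to 13764632 in the Jak1 table, and depth is unknown for the other 2. The labels were checked on the targeted loci. Jak1 had 2073, 1919 and 1933 scaled counts in the null libraries, against 2451, 2443 and 2480 in the floxed libraries, 1.25-fold lower over the whole gene (edgeR adjusted p = 2.002e-08). Picalm was 1.72-fold lower in CALM-AF10 off cells, and Kmt2a was 1.51-fold lower in MLL-AF10 DOX and 2.23-fold lower in MLL-AF9 DOX cells, the last 2 on the log2 scales described below. Mllt10 was lower in CALM-AF10 off and MLL-AF10 DOX cells, while Mllt3 overlapped in MLL-AF9 cells and was not called. In Jak1 null cells Picalm was 1.43-fold lower as well (edgeR adjusted p = 5.324e-15), a wider gap than that of Jak1. Mllt10 was also called lower in Jak1 null cells, by less (log2 fold change -0.10, edgeR adjusted p = 0.01347). Monocyte and granulocyte genes such as Ly6c2, Lyz2 and Ngp were present in every table, whereas Ms4a1 and Pax5 of B cells and Cd3e and Cd3g of T cells were at 0 or at the lowest listed FPKM in all libraries of the 2 count tables and of the MLL-AF9 table. Other markers of these lists were present: Cd79b of B cells had 133 to 154 scaled counts in the CALM-AF10 off and on table and 72.5 to 92.2 in the Jak1 table, and Lck of T cells 171 to 267 and 41.6 to 85.0. Among the tested B, T, conventional dendritic and mast cell markers, 3 calls were made in all, namely Tpsb2 higher in CALM-AF10 off cells and, in Jak1 null cells, Kit higher and Lck lower. Of all genes 5.24% were called in the CALM-AF10 off and on table and 55.7% in the Jak1 table. The Tpsb2 call was lost without off library 1, on library 2 or on library 3. With DESeq2, 2 mast cell markers were called higher and 1 lower in CALM-AF10 off cells.

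Levels were compared between the genes only per length, as CPM per kilobase of annotated exon in the count tables and as FPKM in the MLL-AF9 table. CPM here are counts scaled to the TMM-adjusted library size of the genes tested. Cd14 stood first in 5 of the 6 arms so ranked, at 42.3 ± 3.13 in CALM-AF10 off and 48.0 ± 1.49 in CALM-AF10 on cells (CPM per kilobase, SD, n = 3 each). In Jak1 null cells Myd88 stood first at 29.6 ± 0.52 and Cd14 second at 21.3 ± 0.36, with no overlap between their libraries. In Jak1 floxed cells Cd14 had 58.6 ± 2.13 and Myd88 32.4 ± 1.80 (CPM per kilobase, SD, n = 3 each arm). Cd14, Myd88, Tlr4, Tlr2 and Tlr13 held the first 5 places in all 6 arms, with Tlr1, Tlr6, Tlr7, Ly96 and Tlr9 below them. In CALM-AF10 off cells the libraries of Cd14 and Myd88 overlapped, as did those of Tlr4 and Tlr2 and each neighbouring pair from Tlr7 through Tlr1, Ly96 and Tlr9 to Tlr6. In the other arms the neighbours whose libraries overlapped were Tlr7 with Ly96 and Tlr6 with Tlr9 (CALM-AF10 on), Ly96 with Tlr9 (Jak1 null), Myd88 with Tlr2 (MLL-AF9 DOX), and Tlr13 with Tlr7, Tlr6 with Ly96 and Ly96 with Tlr1 (MLL-AF9 DMSO). In MLL-AF9 cells Cd14 had 171 ± 11.9 FPKM under DOX and 169 ± 16.0 FPKM under DMSO, and Tlr9, the lowest of the 10, had 0.55 ± 0.25 FPKM under DOX and 0.99 ± 0.27 FPKM under DMSO (SD, n = 3 each). Exon lengths were the union of GENCODE M1 exons on mm9.

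**Figure D1:**
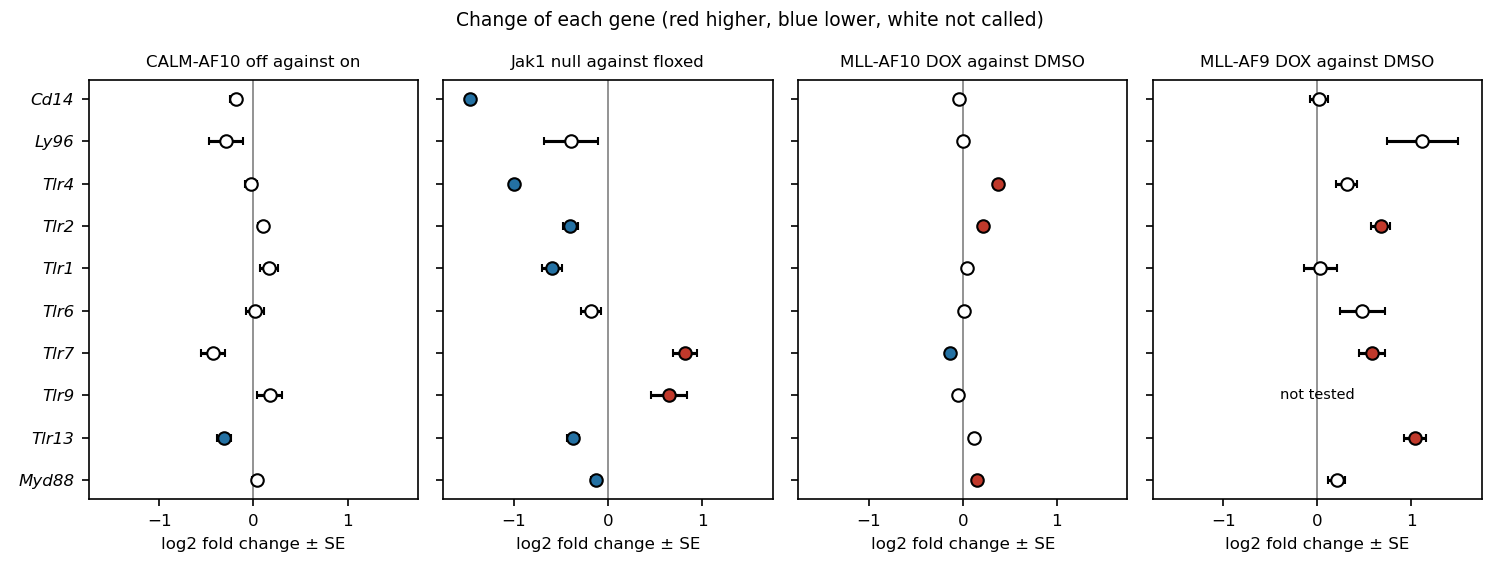
Log2 fold change (x axis, with its standard error) of the 10 genes (rows) in the 4 comparisons (panels), 3 libraries against 3 in each. Red points were called higher, blue points lower and white points not called at an adjusted p under 0.05. Cd14 lies at -1.46 in Jak1 null cells and Tlr13 at 1.035 in MLL-AF9 DOX cells. MLL-AF10 points are on the authors' log2 scale and MLL-AF9 points on log2(FPKM + 1).

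Promoter sequences are shown for 5 genes whose calls the comparisons below turn on. Tlr1, Tlr2, Tlr13 and Myd88 were called lower together in Jak1 null cells, while Tlr9 was called higher. RefSeq (GRCm38.p6) held a promoter for 6 of the 10 genes. Cd14, Ly96, Tlr4 and Tlr7 are named only. Each sequence is the 250 bases before the gene's start, 5′ to 3′ on the gene's strand, with the motif matches in capitals. Tlr2 lies on the minus strand at chr3:83841609-83841858, Tlr13 on the plus strand at chrX:106143025-106143274, Tlr1 on the minus strand at chr5:64933559-64933808, Myd88 on the minus strand at chr9:119340019-119340268 and Tlr9 on the plus strand at chr9:106222348-106222597.
Tlr2: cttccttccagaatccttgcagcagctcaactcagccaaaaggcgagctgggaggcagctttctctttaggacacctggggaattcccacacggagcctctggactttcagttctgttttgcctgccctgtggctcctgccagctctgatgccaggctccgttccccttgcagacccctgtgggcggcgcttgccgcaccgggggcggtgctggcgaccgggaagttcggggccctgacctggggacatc
Tlr13: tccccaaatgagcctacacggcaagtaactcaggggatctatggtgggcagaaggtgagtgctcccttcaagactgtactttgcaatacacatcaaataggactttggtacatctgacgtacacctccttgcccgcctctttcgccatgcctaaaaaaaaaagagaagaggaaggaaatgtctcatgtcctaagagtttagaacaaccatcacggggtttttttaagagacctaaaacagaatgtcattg
Tlr1: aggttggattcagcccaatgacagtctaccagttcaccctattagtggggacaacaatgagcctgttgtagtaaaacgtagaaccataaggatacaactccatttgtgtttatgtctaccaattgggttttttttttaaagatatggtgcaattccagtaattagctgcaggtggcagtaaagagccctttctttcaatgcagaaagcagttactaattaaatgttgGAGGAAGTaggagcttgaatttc
Myd88: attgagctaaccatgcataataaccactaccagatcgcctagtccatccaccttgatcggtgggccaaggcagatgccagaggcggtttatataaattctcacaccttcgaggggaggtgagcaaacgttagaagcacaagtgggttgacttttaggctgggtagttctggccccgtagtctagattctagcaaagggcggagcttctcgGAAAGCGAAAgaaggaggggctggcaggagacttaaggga
Tlr9: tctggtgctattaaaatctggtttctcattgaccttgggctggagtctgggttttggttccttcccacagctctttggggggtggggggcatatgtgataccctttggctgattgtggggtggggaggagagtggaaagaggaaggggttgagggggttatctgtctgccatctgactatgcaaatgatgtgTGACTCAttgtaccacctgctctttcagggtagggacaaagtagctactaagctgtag

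The motifs searched on both strands were PU.1 (GAGGAAGT), C/EBP (TTGCNNAA), AP-1 (TGANTCA), the NF-kB site and ISRE, the last being the interferon-stimulated response element. RefSeq lists a pair of starts for Tlr1, and the one printed was chosen because it holds a match; the other, with its 250 bases on the minus strand at chr5:64932700-64932949, holds none of the 5 motifs. The printed Tlr1 sequence holds a PU.1 match whose first base is 23 bases before the start, the Myd88 sequence an ISRE match 40 bases before it and the Tlr9 sequence an AP-1 match 58 bases before it. Neither the Tlr2 nor the Tlr13 sequence holds any of the 5 motifs as spelled here. A single spelling of each was searched, so sites spelled otherwise, NF-kB sites among them, would be missed. Of the promoters not printed, one of the Tlr6 starts holds a C/EBP match at 89 bases and a pair of overlapping ISRE matches at 116 and 110 bases. Among 32851 promoters of the same length, 2.44% hold the PU.1 letters, 9.56% C/EBP, 6.75% AP-1, 1.41% NF-kB and 2.98% ISRE. These are matches of letters and were not tested as binding sites.

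Jak1 encodes the kinase shared by the receptors for interferons and many cytokines, including IL6. In Jak1 null cells several surface receptors for lipopolysaccharide and lipopeptides were lower and 2 endosomal receptors were higher. Cd14 fell 2.76-fold and Tlr4 1.999-fold, Tlr1, Tlr2, Tlr13 and Myd88 fell by less, and Tlr7 rose 1.76-fold and Tlr9 1.57-fold. Of the 10 genes 6 were called lower and 2 higher by edgeR's quasi-likelihood test with Benjamini-Hochberg adjustment over 11607 genes. That background was dense, since 55.7% of all genes tested were called, 28.3% lower and 27.4% higher. With the added demand of at least a 1.5-fold change, a rule chosen after seeing the data, 3 of the 10 were lower and 2 higher, where 14.2% of all genes were called, 10.2% lower and 4.03% higher. The median log2 fold change was -0.38 over the 10 genes and 0.01 over all genes tested.

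Among the lipopolysaccharide receptors, Cd14 had 423, 411 and 423 scaled counts in Jak1 null libraries, against 1188, 1168 and 1107 in floxed libraries. The arms were far apart and varied little within themselves. The log2 fold change was -1.46 ± 0.05 (SE, edgeR adjusted p = 4.473e-21). Tlr4 had 597, 616 and 611 scaled counts in null libraries, against 1205, 1243 and 1198 in floxed libraries, a log2 fold change of -0.999 ± 0.047 (SE, edgeR adjusted p = 1.665e-17). Again no null library came near a floxed one. Ly96, which gives Tlr4 its lipid pocket, had 11.2, 20.7 and 15.5 scaled counts in null libraries, against 18.2, 24.7 and 19.1 in floxed libraries. Its arms overlapped and it was not called (log2 fold change -0.39 ± 0.29, edgeR adjusted p = 0.2515), with 11 to 27 reads a library.

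Among the lipopeptide receptors, Tlr1 had 123, 115 and 111 scaled counts in null libraries, against 186, 166 and 176 in floxed libraries (log2 fold change -0.60 ± 0.10, edgeR adjusted p = 1.508e-05). Its partner Tlr2 had 216, 235 and 207 in null libraries, against 312, 275 and 284 in floxed libraries (log2 fold change -0.40 ± 0.08, edgeR adjusted p = 0.0001336). Both were lower in every null library than in any floxed one. Tlr6, the alternative partner of Tlr2, had 120, 127 and 133 in null libraries, against 144, 153 and 132.5 in floxed libraries, overlapped, and was not called (log2 fold change -0.18 ± 0.11, edgeR adjusted p = 0.1591).

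The endosomal receptors did not move as one. Tlr7 had 141, 168 and 147 scaled counts in null libraries, against 65.2, 94.2 and 97.5 in floxed libraries (log2 fold change 0.82 ± 0.13, edgeR adjusted p = 3.668e-06). Tlr9 had 66.3, 68.0 and 48.4 in null libraries, against 47.1, 33.8 and 36.0 in floxed libraries (log2 fold change 0.65 ± 0.19, edgeR adjusted p = 0.004494). All null libraries lay above all floxed ones for both genes, although the lowest null library for Tlr9 lay close to the highest floxed one. Tlr13 went the other way, with 395, 382 and 402 in null libraries, against 509, 547 and 467 in floxed libraries (log2 fold change -0.37 ± 0.06, edgeR adjusted p = 9.061e-06). The adaptor Myd88 had 946, 943 and 973 in null libraries, against 1053, 984 and 1099 in floxed libraries, a small difference without overlap (log2 fold change -0.13 ± 0.05, edgeR adjusted p = 0.02191). The Myd88 call was lost with DESeq2 (adjusted p = 0.05985) and without null library 1 (0.05166), null library 2 (0.05643) or floxed library 3 (0.136). The other 9 genes kept their verdict under every alternative fit.

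**Figure D2:**
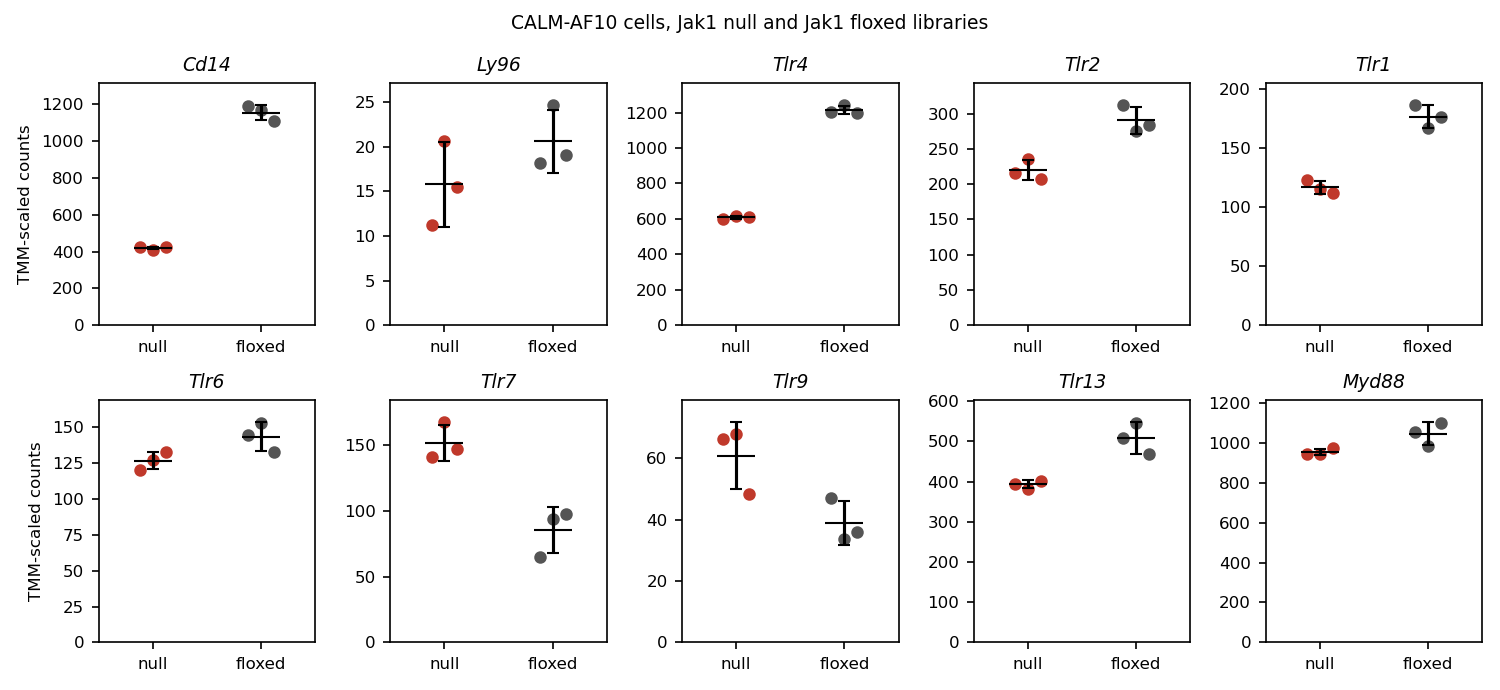
Scaled counts (y axis, from 0) of the 10 genes in the 3 Jak1 null libraries (red, left) and the 3 Jak1 floxed libraries (grey, right) of CALM-AF10 cells; points are libraries, the bar is the mean and the error bar the SD. Cd14 and Tlr4 show the widest gaps, and Tlr7 and Tlr9 are the pair with higher null libraries.

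Other genes of the pathway were read from fixed lists. Among all genes 55.7% were called, 28.3% lower and 27.4% higher, so counts near these shares do not set a list apart. Of 20 adaptors and kinases 10 were lower and 5 higher, and by smallest adjusted p these were led by Ikbke, a kinase activating interferon regulatory factors, at 778 ± 50.7 scaled counts in null and 1487 ± 43.7 in floxed libraries, and Ticam2 (TRAM), which links Tlr4 to Ticam1, at 219 ± 6.89 in null and 91.2 ± 11.5 in floxed libraries (SD, n = 3 each). Tirap, the sorting adaptor that recruits Myd88, and Irak2, a kinase of the Myd88 complex, were both called lower, with log2 fold changes of -0.57 and -0.84. The 5 higher adaptors became 3 without null library 2, without floxed library 2 or with DESeq2. Of the 7 ligand transfer genes and co-receptors 5 were lower, among them Itgam and Itgb2, the chains of complement receptor 3 (log2 fold change -0.74 and -0.35), and 2 were higher, among them Ly86 (MD-1) at 0.93. Its partner Cd180, a Tlr4-like receptor, had 236 ± 11.1 scaled counts in null and 85.4 ± 14.3 in floxed libraries (log2 fold change 1.46, edgeR adjusted p = 1.575e-12). Cd180 and Tlr5, the flagellin receptor, were the 2 of 6 further receptors that could be tested, and both were called higher; the Tlr5 call was lost without null library 1 or floxed library 1, and with DESeq2. Of the 6 lower among 11 tested inflammatory target genes, the chemokines Ccl3 (1020 ± 56.1 in null and 3468 ± 33.7 scaled counts in floxed libraries, SD, n = 3 each) and Ccl4 and the prostaglandin enzyme Ptgs2 had log2 fold changes of -1.77, -2.75 and -2.99. The 1 higher target, the acute-phase gene Saa3, was named after its values were seen, and its call was lost with DESeq2 and without null library 2, null library 3, floxed library 1 or floxed library 2. Of 13 trafficking and processing genes 4 were higher and 2 lower, with Cnpy3, a folding factor for these receptors, at a log2 fold change of 0.41, and Unc93b1 was not called (-0.07, edgeR adjusted p = 0.1658). Of 9 downstream transcription factors 3 were higher and 2 lower. The stress-induced factor Atf3 had 54.8 ± 5.06 scaled counts in null and 231 ± 5.31 in floxed libraries (SD, n = 3 each), and the interferon regulator Irf7 had a log2 fold change of -1.53; the 3 higher factors (Irf5, Nfkb1 and Nfkbiz, the last named after its values were seen) became 1 without floxed library 2. Of 13 negative regulators 7 were lower and 1 higher, with the inhibitory receptor Cd300lf and the deubiquitinase Cyld lower (log2 fold change -0.83 and -0.30) and Tnfaip3 (A20) higher (0.44).

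Markers of cell types changed as well, in both directions. Of 8 monocyte and macrophage markers tested 5 were higher and 2 lower, and their summed level was 4793 to 5108 CPM in null and 4201 to 4484 in floxed libraries. Of 7 neutrophil markers 3 were higher and 4 lower, with summed levels of 1679 to 1796 CPM in null and 2076 to 2125 in floxed libraries; without Ngp, the most abundant, the sums were 888 to 952 in null and 760 to 784 in floxed libraries, so the order turned. Of the 4 plasmacytoid dendritic markers, Tcf4 and Bst2 were higher and Siglech and Ccr9 had at most 2.12 scaled counts in any library, and the sum was 494 to 508 CPM in null and 408 to 434 in floxed libraries. Of B cell markers Ms4a1 and Pax5 were at 0 in all 6 libraries, Cd79a had at most 8.23 scaled counts, and Cd79b had 72.5 to 89.1 in null and 85.0 to 92.2 in floxed libraries and was not called. The part of cell composition in the changes of the 10 genes was not tested, and in these bulk samples fewer cells of a type and less RNA per cell cannot be told apart.

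In MLL-AF9 cells DOX was accompanied by higher levels of several receptors, and none was called lower. Tlr13 rose 2.05-fold, Tlr2 1.60-fold and Tlr7 1.496-fold, while the Cd14 libraries overlapped between the arms. On log2(FPKM + 1), which understates the change of low genes, 3 of the 9 genes tested were called higher and none lower by limma with Benjamini-Hochberg adjustment over 10881 genes, where 11.8% of all genes were called, 7.23% higher and 4.54% lower. An unadjusted p under 0.05 was reached by 5 of the 9, all with a positive change, and by 27.9% of all genes, 14.5% with a positive change. With at least a 1.5-fold change on that scale 2 of the 9 were called higher and none lower, where 6.72% of all genes were called, 4.74% higher and 1.98% lower. The median log2 fold change was 0.48 over the 9 genes and -0.02 over all genes tested. Tlr9 had a mean under 1 FPKM and was not tested.

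Tlr13 had 20.6, 20.3 and 25.2 FPKM in DOX libraries, against 9.60, 10.2 and 10.8 FPKM in DMSO libraries (log2 fold change 1.035 ± 0.117, SE, limma adjusted p = 0.002256). Tlr2 had 40.7, 36.4 and 35.1 FPKM in DOX libraries, against 21.5, 22.2 and 25.5 FPKM in DMSO libraries (log2 fold change 0.68 ± 0.10, limma adjusted p = 0.006672). The arms of both genes were well apart. Tlr7 had 16.5, 15.8 and 13.0 FPKM in DOX libraries, against 11.4, 9.04 and 8.91 FPKM in DMSO libraries (log2 fold change 0.58 ± 0.14, limma adjusted p = 0.03981). Its arms did not overlap, but the call was close to the threshold and was lost without any 1 library other than DOX library 3, with adjusted p from 0.05039 to 0.1347, without the filter on low genes (0.1527), and without the variance trend (0.05289).

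The lipopolysaccharide receptors were not called. Cd14 had 167, 184 and 161 FPKM in DOX libraries, against 187, 156 and 163 FPKM in DMSO libraries, with overlapping arms and a log2 fold change of 0.02 ± 0.09 (SE, limma adjusted p = 0.9262). Tlr4 had 59.7, 49.2 and 50.5 FPKM in DOX libraries, against 46.5, 42.9 and 38.5 FPKM in DMSO libraries (log2 fold change 0.31 ± 0.11, limma adjusted p = 0.1116). Ly96 had 6.74, 8.61 and 8.87 FPKM in DOX libraries, against 1.17, 4.42 and 5.14 FPKM in DMSO libraries (log2 fold change 1.11 ± 0.38, limma adjusted p = 0.1057). For Tlr4 and Ly96 every DOX library was above every DMSO library, and the wide DMSO spread of Ly96 came from DMSO library 1. Myd88 (38.9, 39.1 and 42.7 FPKM in DOX libraries, against 36.3, 31.5 and 36.6 in DMSO libraries) and Tlr6 (5.63, 5.80 and 4.78 in DOX libraries, against 4.24, 2.22 and 4.71 in DMSO libraries) were also without overlap and not called (limma adjusted p = 0.1921 and 0.2446). Tlr1 had 3.35, 2.93 and 3.64 FPKM in DOX libraries, against 2.74, 3.14 and 3.77 FPKM in DMSO libraries, overlapped, and was not called (limma adjusted p = 0.9275). Tlr9 had 0.83, 0.46 and 0.36 FPKM in DOX libraries, against 0.75, 0.95 and 1.27 FPKM in DMSO libraries.

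**Figure D3:**
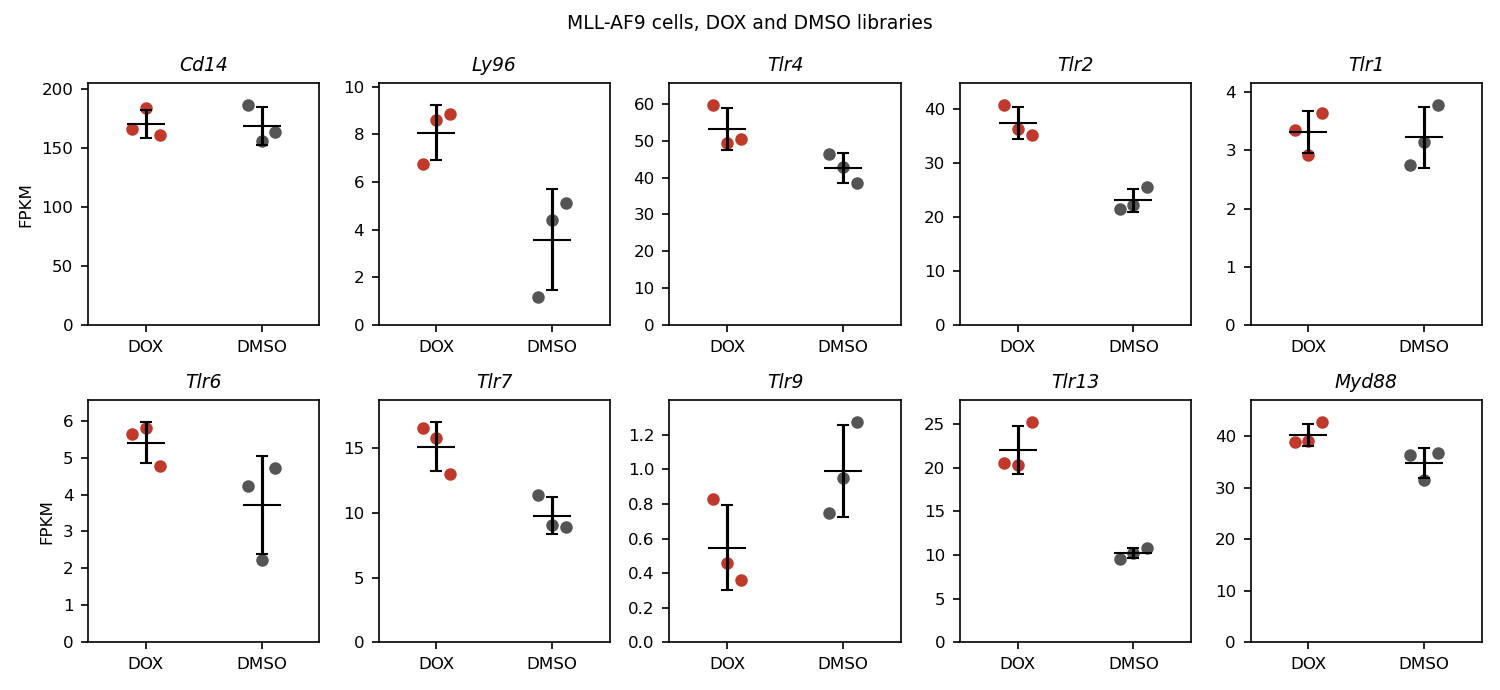
FPKM (y axis, from 0) of the 10 genes in the 3 DOX libraries (red, left) and the 3 DMSO libraries (grey, right) of MLL-AF9 cells; points are libraries, the bar is the mean and the error bar the SD. Tlr13, Tlr2 and Tlr7 are separated and called, and the Cd14 libraries interleave between 156 and 187 FPKM.

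Around these receptors, 13 of 16 tested inflammatory target genes were higher and 1 lower in MLL-AF9 DOX cells. Among all genes 7.23% were called higher and 4.54% lower. Of 7 ligand transfer genes and co-receptors Itgam and Itgb2 were higher, at log2 fold changes of 0.88 and 0.56. Lcn2, an iron-sequestering protein of granules, had 350 ± 33.5 FPKM under DOX and 53.1 ± 11.6 FPKM under DMSO; the chemokine Cxcl2 had 398 ± 32.7 FPKM under DOX and 106 ± 18.6 FPKM under DMSO (SD, n = 3 each). Il1rn, which blocks the interleukin-1 receptor, and the chemokine Ccl2 had log2 fold changes of 1.13 and 1.52. The lower gene, the interferon-induced chemokine Cxcl10, was singled out after its values were seen (4.98 ± 1.84 FPKM under DOX and 14.7 ± 2.93 FPKM under DMSO, SD, n = 3 each), and its call was lost without DMSO library 2 or DMSO library 3. Of 13 trafficking and processing genes 6 were higher, led by the endosomal proteases Ctsl, Ctsb, Ctss and Lgmn with log2 fold changes of 0.64, 0.67, 0.95 and 1.035. Unc93b1 was also higher, at 208 ± 6.83 FPKM under DOX and 162 ± 8.79 FPKM under DMSO (limma adjusted p = 0.02165), and is named after its values were seen. Of 9 downstream transcription factors 4 were higher, among them Atf3 (log2 fold change 1.08) and Irf5 (1.08), a factor activated by Myd88. Of 14 negative regulators 5 were higher, led by the phosphatase Dusp1 and the mRNA decay factor Zfp36 at 1.502 and 1.122. Tlr8, a relative of Tlr7, and Cd180 were higher as well, at 1.34 and 0.61, and of that pair 1 call was left without DOX library 3 or DMSO library 1 and 0 without DMSO library 2. The 4 higher of 19 adaptors and kinases (Ikbke, Ticam1, Peli2 and Map3k8) became 1 whichever library was left out. Without the filter on low genes the higher calls fell to 6 inflammatory targets, 1 transcription factor, 3 negative regulators, 1 adaptor or kinase and 0 further receptors.

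Monocyte and macrophage markers were higher for 6 of 10 in MLL-AF9 DOX cells, with a summed level of 13540 to 14420 FPKM under DOX and 5376 to 6711 FPKM under DMSO. Lyz2 made up 71.5% to 84.7% of that sum, and without it the sums were 2078 to 2359 FPKM under DOX and 1524 to 1696 FPKM under DMSO. The 6 higher markers became 2 without the filter on low genes. Neutrophil markers were higher for 5 of 7, with sums of 2234 to 2500 FPKM under DOX and 308 to 382 FPKM under DMSO, among them Ngp (log2 fold change 2.98) and Ltf (3.47). Their part in the higher receptor levels was not tested. Plasmacytoid dendritic markers gave 0 calls among 2 tested, and Ms4a1, Pax5, Cd3e and Cd3g were at the lowest listed FPKM in all 6 libraries. Cd79b was at 0.01 FPKM, the lowest listed, in every DOX library and at 0.82, 0.89 and 1.19 in DMSO libraries, and was not tested, its mean being under 1 FPKM. Lck had 0.80 to 1.44 FPKM under DOX and 0.95 to 1.89 under DMSO.

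In MLL-AF10 cells the deposited values are on a log2 scale, and how the authors transformed them is not stated in the sources used here. Low genes vary little between libraries on that scale, so the differences can be smaller than those of counts. Tlr4, Tlr2 and Myd88 were higher and Tlr7 was lower under DOX, each by less than 1.5-fold on this scale. Of the 10 genes 3 were called higher and 1 lower by limma with Benjamini-Hochberg adjustment over 10553 genes, where 19.8% of all genes were called, 10.6% higher and 9.17% lower. At 1.5-fold 0 of the 10 and 0.436% of all genes were called, 0.161% higher and 0.275% lower. The median difference was 0.032 over the 10 genes and 0.00059 over all genes tested. Same-numbered libraries of this table deviated together, though unlike-numbered libraries 2 and 3 did so almost as much. With the same-numbered pair as a block Tlr13 was called too, as given below.

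Tlr4 had deposited log2 values of 9.69, 9.68 and 9.63 in DOX libraries, against 9.30, 9.31 and 9.25 in DMSO libraries (difference 0.38 ± 0.03, SE, limma adjusted p = 1.777e-06). Tlr2 had log2 values of 8.62, 8.73 and 8.81 in DOX libraries, against 8.49, 8.51 and 8.51 in DMSO libraries (difference 0.21 ± 0.04, limma adjusted p = 0.002392, and 0.1498 without the filter on low genes). Myd88 had log2 values of 9.03, 9.04 and 9.05 in DOX libraries, against 8.84, 8.89 and 8.91 in DMSO libraries (difference 0.16 ± 0.03, limma adjusted p = 0.003146). All 3 genes were higher in each DOX library than in any DMSO library. Tlr7 had log2 values of 7.75, 7.66 and 7.70 in DOX libraries, against 7.77, 7.85 and 7.89 in DMSO libraries (difference -0.13 ± 0.04, limma adjusted p = 0.02711). Its highest DOX library lay just under its lowest DMSO library. The Tlr7 call was lost without the filter on low genes (0.2353) and without DOX library 2 (0.1333), DOX library 3 (0.09149), DMSO library 2 (0.086) or DMSO library 3 (0.1119). Tlr13 had log2 values of 8.57, 8.69 and 8.64 in DOX libraries, against 8.41, 8.55 and 8.57 in DMSO libraries, overlapped, and was not called (difference 0.13 ± 0.05, limma adjusted p = 0.06844). With the pair as a block its adjusted p was 0.00282, and without DOX library 1 and with no block it was 0.03898.

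Cd14 was not called in MLL-AF10 cells, at 8.14, 8.17 and 8.16 in DOX libraries, against 8.23, 8.20 and 8.17 in DMSO libraries (log2 values, difference -0.04 ± 0.03, SE, limma adjusted p = 0.4544). Ly96, Tlr1, Tlr6 and Tlr9 had differences between -0.05 and 0.05 and were not called. Without DMSO library 1, Tlr9 was called lower (difference -0.11, limma adjusted p = 0.04409).

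Among all genes in MLL-AF10 DOX cells 10.6% were called higher and 9.17% lower. Of 13 trafficking and processing genes 4 were higher and none lower, namely Ctsl, Ctss, Ctsb and Unc93b1. Their differences were 0.32, 0.30, 0.19 and 0.22. Of 9 downstream transcription factors Irf5 was the only one called (difference 0.44, limma adjusted p = 1.623e-05). Itgb2 and Itgam were among 3 of 6 ligand transfer genes and co-receptors called higher, at 0.19 and 0.18, and 1 was lower (Hmgb1, -0.10), a count of 2 with the pair as a block and of 0 without DOX library 1, 2 or 3 or DMSO library 2. Of 19 adaptors and kinases the ubiquitin ligase Peli2 and the kinase Ikbke were higher (0.34 and 0.27) and Tab2 lower (-0.10); with the pair as a block 4 were higher, and the Tab2 call was lost without DOX library 1, 2 or 3 or DMSO library 2 or 3. Of 15 negative regulators 4 were higher, led by Cd300lf (0.24), and 2 lower, led by Tnip3 (-0.28); the higher ones became 2 without DOX library 3, and the lower ones 1 without DOX library 2, DOX library 3 or DMSO library 3. Tlr8 was the only further receptor called, at 0.35. Among the 11 inflammatory target genes tested 1 was higher (Lcn2, 0.62) and 2 lower (Ccl3, -0.31, and Acod1, -0.10); the Acod1 call was lost without DOX library 2, DOX library 3, DMSO library 2 or DMSO library 3. With the pair as a block 3 of these were higher and 4 lower. Without the filter on low genes the calls fell to 2 trafficking genes, 0 transcription factors, 1 higher ligand transfer gene, 2 higher negative regulators, and 0 higher and 1 lower inflammatory targets. Monocyte and macrophage markers were higher for 6 of 9 and lower for 1, with sums of 2 to the log2 value of 32040 to 35910 under DOX and 22190 to 25600 under DMSO; without Lyz2 these were 14130 to 14900 under DOX and 12040 to 13610 under DMSO. Neutrophil markers were higher for 3 of 6. Plasmacytoid dendritic markers summed to 772 to 809 under DOX and 1091 to 1237 under DMSO on the same scale, with Tcf4 lower by 0.74. Tcf4 made up 71.9% to 82.3% of that sum. Without Tcf4 the sums overlapped, at 216 to 218 under DOX and 212 to 226 under DMSO. The part of these markers in the receptor differences was not tested.

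In CALM-AF10 off cells Tlr13 was the only one of the 10 genes called, 1.24-fold lower, where 5.24% of 12366 genes were called by edgeR, 3.11% lower and 2.13% higher. At 1.5-fold 0 of the 10 and 1.48% of all genes were called, 1.21% lower and 0.267% higher. An unadjusted p under 0.05 was reached by 3 of the 10 and by 21.8% of all genes. The median log2 fold change was -0.0036 over the 10 genes and -0.0029 over all genes tested. Tlr13 had 878, 1034 and 1003 scaled counts in off libraries, against 1129, 1188 and 1273 in on libraries (log2 fold change -0.31 ± 0.07, SE, edgeR adjusted p = 0.04487). Every off library lay under every on library. Without off library 3, an off library with 12130633 counts, the adjusted p was 0.03336. Without off library 1 or 2 it was 0.1099 or 0.06566, and without on library 1, 2 or 3 it was 0.06537, 0.1425 or 0.1809.

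Tlr7 had 438, 633 and 567 scaled counts in off libraries, against 661, 805 and 727 in on libraries, did not overlap, and was not called (log2 fold change -0.43 ± 0.13, edgeR adjusted p = 0.09014). DESeq2 called it (adjusted p = 0.02424), as did edgeR without the filter on low counts (0.04862). The authors' deposited table of gene lists, whose rule is not stated, holds Tlr7 and Tlr13 among the 359 symbols headed as down in CALM-AF10 off cells. None of the 10 genes is in the corresponding lists of 966 symbols for MLL-AF10 and 887 symbols for MLL-AF9 in the authors' deposited table. Cd14 had 1749, 1971 and 2012 scaled counts in off libraries, against 2094, 2180 and 2227 in on libraries, again without overlap and not called (log2 fold change -0.19 ± 0.06, edgeR adjusted p = 0.1046). Without off library 3, Cd14 was called (edgeR adjusted p = 0.03835). Tlr2 had 1619, 1689 and 1602 in off libraries, against 1555, 1507 and 1535 in on libraries, without overlap and not called (log2 fold change 0.10 ± 0.05, edgeR adjusted p = 0.2483). Tlr4, Tlr1, Tlr6, Tlr9, Myd88 and Ly96 overlapped between the arms, with log2 fold changes of -0.02, 0.17, 0.02, 0.17, 0.04 and -0.29.

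**Figure D4:**
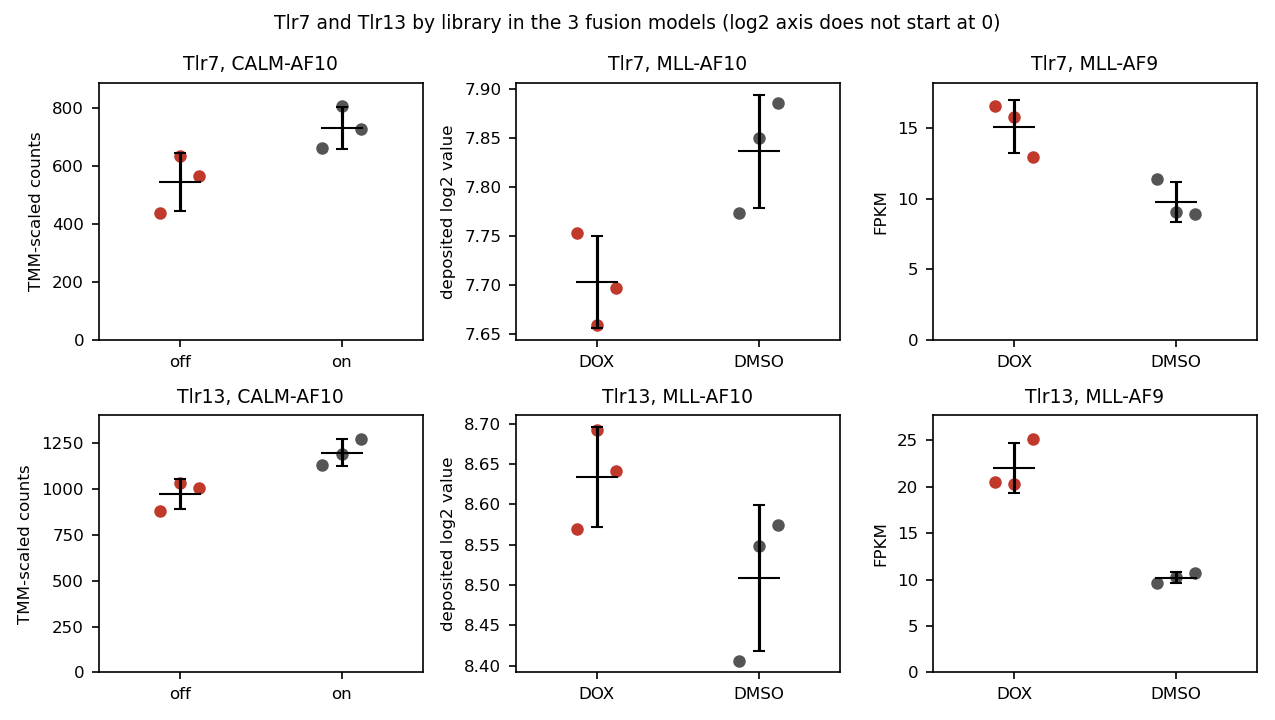
Tlr7 (top) and Tlr13 (bottom) by library in CALM-AF10, MLL-AF10 and MLL-AF9 cells, with off or DOX libraries in red on the left and on or DMSO libraries in grey on the right; points are libraries, the bar is the mean and the error bar the SD. The y axes are scaled counts, deposited log2 values (not starting at 0) and FPKM. Tlr7 is lower in the off or DOX libraries of the first 2 models (not called in CALM-AF10) and higher in those of the third; Tlr13 is lower in the first and higher in the third.

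Among the other pathway genes in CALM-AF10 off cells, Unc93b1 was the only one of 13 trafficking and processing genes called (6536 ± 253 scaled counts in off and 5680 ± 86.3 in on libraries, SD, n = 3 each, log2 fold change 0.20), and Irf5 the only one of 9 downstream transcription factors (log2 fold change 0.31). Of the fits that left out 1 library, only that without off library 3 kept the Unc93b1 call, and the Irf5 call was lost without off library 2, on library 2 or on library 3. Among 17 inflammatory target genes 5 were lower and 1 higher, where 3.11% of all genes were called lower and 2.13% higher. Ccl3 had 1336 ± 177 scaled counts in off and 2458 ± 119 in on libraries, Ptgs2 59.1 ± 8.29 in off and 154 ± 10.01 in on libraries (SD, n = 3 each), and Ccl4 a log2 fold change of -1.13, while Lcn2 was higher by 0.50. The 5 lower genes became 3 without on library 2 or without on library 3. Of 20 adaptors and kinases 0 were called by edgeR and 2 by DESeq2, with 4 at an unadjusted p under 0.05; of 7 ligand transfer genes and co-receptors 0 were called by either, with 1 at an unadjusted p under 0.05. Of 15 negative regulators Tnip3 and Tnfaip3 were lower (log2 fold change -1.22 and -0.42), and 1 call was left without off library 2, on library 2 or on library 3. Of the further receptors Tlr12, known in mice to bind profilin, was lower (log2 fold change -0.72, edgeR adjusted p = 0.04743), and with 1 library left out that call was kept only without off library 2. Summed monocyte and macrophage markers were 3266 to 3465 CPM in off and 2573 to 2744 in on libraries, with 1 of 10 called by edgeR (Lyz2, higher), 3 higher and 1 lower by DESeq2 or with the replicate block, and 6 at an unadjusted p under 0.05. Lyz2 made up 51.1% to 62.6% of that sum, and without it the sums were 1295 to 1463 CPM in off and 1214 to 1271 in on libraries. Leaving out off library 1 gave 3 higher markers, leaving out off library 3 gave 2, and leaving out on library 1 gave 1 lower. Of 6 neutrophil markers 3 were higher and 1 lower, and without on library 2 or on library 3 these became 2 higher and 0 lower. Summed neutrophil markers overlapped, at 186 to 217 CPM in off and 190 to 219 in on libraries. Without Mmp8, the most abundant, the sums were 94.7 to 103 CPM in off and 42.1 to 48.4 in on libraries. Of the 2 plasmacytoid dendritic markers tested 0 were called by edgeR and 1 by DESeq2, with 1 at an unadjusted p under 0.05. The part of these markers in the Tlr13 difference was not tested.

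Set side by side, Irf5 was called higher in CALM-AF10 off, Jak1 null, MLL-AF10 DOX and MLL-AF9 DOX cells, with changes of 0.31, 0.32, 0.44 and 1.08 on each table's log2 scale. It is not among the 10 genes and was picked for this after its values were seen. Of all genes 2.13%, 27.4%, 10.6% and 7.23% were called higher in these comparisons. The Irf5 call was lost in CALM-AF10 without off library 2, on library 2 or on library 3, and in MLL-AF10 without the filter on low genes. Tlr2 was called higher in both MLL fusion models and lower in Jak1 null cells. Tlr13 was called in CALM-AF10 off and Jak1 null cells (lower) and in MLL-AF9 DOX cells (higher). The differences between comparisons were not tested, since the tables were normalized separately.

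How 9 of the 10 genes varied together, Tlr9 being left out because it was not tested in MLL-AF9, was described over the 24 libraries after scaling each gene to mean 0 and unit SD within each table. Such correlations reflect the arms within a table as well as library depth and carry no test. Tlr2 and Myd88 had r = 0.74, Tlr1 and Tlr2 0.68, Tlr4 and Tlr2 0.68, and Tlr4 and Myd88 0.68. Tlr7 had r = -0.54 to Tlr1, -0.37 to Tlr2 and -0.19 to Tlr6. This opposition did not hold in each table, since Tlr7 and Tlr2 were both called higher in MLL-AF9 DOX cells. Cd14 had no r above 0.29 with any of the 8 other genes compared, its highest being with Tlr13. Among 9706 genes tested in all 4 tables, those most like Cd14 were Usp18 (r = 0.83), an interferon-induced protease that removes ISG15, Fam162a (0.83), Sh3d19 (0.83), Tfip11 (0.80) and Rnf6 (0.79). The scaling hides the size of a change. In Jak1 null cells the log2 fold changes of these genes were -1.88, -1.76, -0.82, -0.10 and -0.26, against -1.46 for Cd14.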

How the data were processed

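RNA-seq of cultured mouse leukemia cells was analysed from 4 deposited gene tables, and the 10 genes and the 14 gene lists were chosen with earlier results of these data known. Bowtie 0.12.2 and mm9 appear in the submitters' processing notes, with no step named; which program counted reads, and on which annotation, is not stated there. The labels give polyA RNA, except total RNA for MLL-AF9, whose deposited loci lie at GRCm38 positions. The authors deposited raw counts for the CALM-AF10 off and on table and for the Jak1 table; the Jak1 table is named FPKM, but its values are whole numbers with unequal totals. They deposited log2 normalized values for MLL-AF10, and FPKM values for MLL-AF9 whose lowest entry is 0.01.

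Counts were tested with edgeR 4.0.16 (quasi-likelihood, filterByExpr, TMM). Scaled counts are counts divided by the TMM-adjusted library size and multiplied by its mean over the table. The log2 values were tested with limma 3.58.1 (genes with a mean of at least log2 of 10), and FPKM with limma on log2(FPKM + 1) (genes averaging 1 FPKM or more). A gene was called at a Benjamini-Hochberg adjusted p under 0.05, over all genes tested. Alternatives were DESeq2 1.42.0, other scalings, filters and pseudocounts, a replicate block, leaving out each library, and a 1.5-fold demand added after seeing the data. The test scripts were checked on simulated data. For each list, at most 4 called genes with the smallest adjusted p were named, except where the text says otherwise. Same-numbered libraries deviated together in MLL-AF10 (r from 0.194 to 0.397, each above 0.1). Unlike-numbered libraries did so almost as much for DOX 2 with DMSO 3 (r = 0.17) and DOX 3 with DMSO 2 (r = 0.175). Only the libraries numbered 1 stood apart, so pairing by number is not shown for libraries 2 and 3. The labels name no shared batch, and the block is given only as an alternative. R 4.3.3 and Python 3.11.15 were used.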

Additional observations from a re-analysis of the deposited data

Results flagged for a closer look

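Tlr7 was flagged because all libraries of one comparison moved against all libraries of another. Its log2 fold change was -0.43 in CALM-AF10 off cells (not called) and -0.13 in MLL-AF10 DOX cells, with every off or DOX library under every on or DMSO library, and 0.58 in MLL-AF9 DOX cells, with every DOX library above every DMSO library. Tlr13 was flagged in the same way, with -0.31 in CALM-AF10 off cells and 1.035 in MLL-AF9 DOX cells. Neither difference between the models was tested, because the tables are in different units and were normalized separately. Monocyte and macrophage marker sums were higher in the off or DOX libraries of all 3 models (3266 to 3465 against 2573 to 2744 CPM in CALM-AF10 off and on cells, 32040 to 35910 against 22190 to 25600 as sums of 2 to the log2 value in MLL-AF10 DOX and DMSO cells, and 13540 to 14420 against 5376 to 6711 FPKM in MLL-AF9 DOX and DMSO cells). Lyz2 was the most abundant of these markers in each; without it the sums were still higher, at 1295 to 1463 against 1214 to 1271 CPM, 14130 to 14900 against 12040 to 13610, and 2078 to 2359 against 1524 to 1696 FPKM.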

How the results depend on the processing

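Over the alternatives, the 10 genes kept direction and verdict in 371 instances, lost a call in 23, gained one in 7 and changed sign without a call in 14. In CALM-AF10 off against on, genes called numbered 1048 with a replicate block, 183 at 1.5-fold and 147 to 933 with a library left out, where the main count was 648; members called lower numbered 2 with DESeq2, without a filter or with the block, 0 at 1.5-fold and 0 to 2 with a library left out. For Jak1 null against floxed, 1651 genes and 3 lower members passed at 1.5-fold. For MLL-AF10, 604 genes were called without a filter, 46 at 1.5-fold and 1307 to 2395 with a library left out, where the main count was 2089; members called lower numbered 0 without a filter, 0 at 1.5-fold and 0 to 2 with a library left out, and 0 were called higher at 1.5-fold. For MLL-AF9, 592 genes were called without a filter, 781 with the block, 731 at 1.5-fold and 596 to 996 with a library left out, where the main count was 1281. The 1.5-fold rule is stricter by construction; the cause of the other changes was not tested. In MLL-AF9 the block took the Tlr7 call (limma adjusted p = 0.05227), and in CALM-AF10 it added one for Tlr7 (edgeR adjusted p = 0.007472). Same-numbered libraries did not deviate together in the Jak1 table (r from -0.0108 to 0.00304) or in MLL-AF9 (-0.00711 to 0.0205). In CALM-AF10 their r ran from -0.00314 to 0.294, and off library 2 with on library 3 had 0.18. Whether numbers pair the CALM-AF10 libraries is undecided. In MLL-AF10 the block changed no call among the 10 genes other than Tlr13. With a library left out, the sign of uncalled log2 fold changes varied: in CALM-AF10, Tlr4 -0.0728 to 0.0430, Tlr6 -0.0251 to 0.0559, Tlr9 -0.00894 to 0.273, Myd88 -0.00122 to 0.0608, Kmt2a -0.0390 to 0.215 and Mllt3 -0.0170 to 0.167; in Jak1, Kmt2a -0.0601 to 0.0667 (-0.00139 with RLE size factors, -9.12e-05 with DESeq2); in MLL-AF10, Ly96 -0.0136 to 0.0160 (-0.00996 with median scaling); in MLL-AF9, Cd14 -0.0378 to 0.0922, Tlr1 -0.0497 to 0.126 and Mllt10 -0.0635 to 0.0614. Ly96 rested on 11 to 27 reads in a Jak1 library, and depth is unknown for the MLL tables.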
